A study of Homo sapiens with 4 samples.

Results

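The genes described here are 10 chemokine and interleukin genes that epithelial cells can make: CXCL1, CXCL2, CXCL3, IL8 (now named CXCL8), CCL20, IL1A, IL1B, IL6, IL18 and CXCL10. They were picked by symbol from an RNA-Seq table of 62077 rows, and all 10 were found, each on 1 row of a primary chromosome. The cells were FaDu (FADU in the labels), an established line from a squamous carcinoma of the hypopharynx, and so carcinoma cells of a single origin grown without stroma or immune cells. All 4 groups carried a lentiviral short hairpin RNA. In the control groups it was scrambled, and in the TET1-si groups it was aimed at TET1, the dioxygenase that oxidises 5-methylcytosine in DNA. Each kind of cell was kept in normoxia or in hypoxia for 19 h, in 1% O2, 5% CO2 and 94% N2. The 4 libraries are called scr-N (normoxia, scrambled), scr-H (hypoxia, scrambled), si-N (normoxia, TET1-si) and si-H (hypoxia, TET1-si). Each group had 1 library, so no difference below has a replicate check, no p-value is given, and every statement describes these libraries. The knockdown used 1 target sequence, so an effect of that hairpin on other transcripts and an effect of less TET1 cannot be told apart.

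Chemokines are small secreted proteins that draw leukocytes along a gradient. CXCL1, CXCL2, CXCL3 and IL8 act on neutrophils through the receptors CXCR1 and CXCR2, CCL20 draws CCR6-bearing lymphocytes and dendritic cells, and CXCL10 is an interferon-induced ligand of CXCR3 on T cells. IL1A and IL1B are the agonists of the interleukin-1 receptor, IL18 is a family relative that is stored as a precursor in epithelia, and IL6 signals through gp130 and STAT3. In epithelia most of these genes are driven by NF-kB, a family of dimeric transcription factors that inhibitors such as IkB alpha hold in the cytoplasm until a signal arrives.

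Values are FPKM, fragments scaled by exon length and sequencing depth, as the authors deposited them. The read depth behind them, worked out from the steps between low values, was between 22530000 reads (si-H) and 24600000 (scr-H). TET1 itself was at 0.129 FPKM in scr-N and 0.0493 in si-N, and at 0.331 in scr-H and 0.122 in si-H, which is 2.63-fold lower after knockdown in normoxia and 2.71-fold lower in hypoxia on between 11 and 77 approximate reads. All 10 epithelial markers looked at were above the minimum level used below, but 4 of the 10 were at least 2-fold lower in si-N than in scr-N and 5 of 10 were in si-H against scr-H. Over all genes above that minimum the shares were 5.56% and 8.35%. The summed level of the 10 markers was 7754 FPKM in scr-N, 10546 in scr-H, 2804 in si-N and 4741 in si-H. The basal keratin KRT14 went from 42.1 and 99.9 FPKM in scr-N and scr-H to 0.487 and 1.41 in si-N and si-H. Of 11 leukocyte markers, 3 passed the minimum (CD68, ITGAM and CD14), 4 were at 0 in every library, and the sum ran from 24.1 to 32.7 FPKM, while the pan-leukocyte gene PTPRC had a mean of 0.00251 FPKM. Of 7 fibroblast markers only COL1A1 passed, at 5.29, 28.6, 14.0 and 37.0 FPKM in scr-N, scr-H, si-N and si-H, with COL1A2, PDGFRA and LUM at 0 throughout. Among the endothelial markers CDH5 and VWF passed, and CDH5 was at 8.75, 16.0, 21.7 and 45.5 FPKM in the same order. The keratins, COL1A1 and CDH5 thus moved with the knockdown or with oxygen, and their part in the results below was not tested. In bulk RNA, fewer cells that make a message and less message per cell cannot be told apart.

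The shRNA target is shown because every TET1-si value rests on it. It matched the genome once on chromosome 10, at chr10:70451833-70451853 (hg19, plus strand), in exon 12 of TET1 past the end of the coding sequence, and it was in none of the main transcripts of the 10 genes.
TET1 target site: ccttgatagaatcactcagtt

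The promoters of CXCL1, CXCL2 and CXCL3 are shown because these neighbouring genes are duplicates of each other and were all lower in TET1-si cells. The sequences are RefSeq's (table build GRCh38.p14) for 9 of the 10 genes, and each was matched whole and once to GRCh37 (hg19), whose coordinates are given. Each line holds 120 bases that end shortly before the transcription start, and the capitals mark the 10-letter form GGGAATTTCC, which fits the NF-kB consensus.
CXCL1, chr4:74734971-74735090, plus strand: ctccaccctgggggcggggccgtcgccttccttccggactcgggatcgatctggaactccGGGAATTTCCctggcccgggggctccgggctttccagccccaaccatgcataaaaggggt
CXCL2, chr4:74964931-74965050, minus strand: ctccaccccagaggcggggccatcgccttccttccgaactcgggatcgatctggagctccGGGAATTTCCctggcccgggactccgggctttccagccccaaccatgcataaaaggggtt
CXCL3, chr4:74904426-74904545, minus strand: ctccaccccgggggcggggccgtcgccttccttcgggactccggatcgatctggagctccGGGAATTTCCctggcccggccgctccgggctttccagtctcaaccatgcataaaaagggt

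In a gapped alignment the CXCL1 stretch was 92.6% identical to that of CXCL2 and 92.5% to that of CXCL3, and CXCL2 and CXCL3 were 89.3% identical. The marked letters began 79 bases before the RefSeq start in CXCL1 and CXCL3 and 78 bases before it in CXCL2. For IL8, CXCL10, IL6 and CCL20 short windows follow, with the 9 letters GGAATTTCC on either strand (IL8 and CXCL10) or a match to GGGNNNNNCC, where N is any base (IL6 and CCL20) in capitals.
IL8, chr4:74606185-74606213, plus strand: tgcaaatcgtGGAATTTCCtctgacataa
CXCL10, chr4:76944808-76944836, minus strand: aggagcagagGGAAATTCCgtaacttgga
IL6, chr7:22766736-22766765, plus strand: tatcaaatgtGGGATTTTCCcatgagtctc
CCL20, chr2:228678468-228678497, plus strand: ttgatcaatgGGGAAAACCCcatgtggcaa

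The capitals began 91 bases before the start in IL8, 176 in CXCL10 (where the letters lie on the opposite strand), 73 in IL6 and 80 in CCL20. For IL6 and CCL20 the match shown was picked on the printed strand within a set range of distances before the start. Its nearness to the CXCL1 position is therefore no result. Over 300 bases and both strands, CCL20 held 5 matches to GGGNNNNNCC and IL6 held 3, some of them overlapping. Searched on both strands over windows of 300 bases, the 9 letters GGAATTTCC were in 129 of 27305 RefSeq promoters (0.472%), and in 5 of the 9 promoters here: CXCL1, CXCL2, CXCL3, IL8 and CXCL10. That motif was chosen after these promoters had been read, and 3 of the 5 are copies of 1 ancestral sequence, so the count describes the sequences only. The looser form GGGNNNNNCC, which overlaps it, was in 7 of the 9 and in 58.0% of all promoters. The core hypoxia response motif ACGTG was in the IL1A and CXCL10 windows (2 of 9) and in 21.6% of all promoters. A match is a string of letters and not a measured binding site.

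In scrambled cells CXCL1 was the highest of the 10 genes, at 27.4 FPKM in normoxia and 54.2 in hypoxia. In TET1-si cells it was IL18, at 42.3 and 49.2 FPKM. The summed level of the 10 genes was 109.2 FPKM in scr-N, 210.8 in scr-H, 63.7 in si-N and 63.8 in si-H, so it was nearly 2 times as high with hypoxia in scrambled cells and hardly differed between the oxygen states in TET1-si cells. IL18 made up 23.6% of the sum in scr-N, 18.2% in scr-H, 66.4% in si-N and 77.1% in si-H. For 7 genes the order of the libraries was scr-H, scr-N, si-N, si-H from high to low. CCL20 differed from it only in that si-H and si-N changed places, and IL6 and IL18 had orders of their own.

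**Figure D1:**
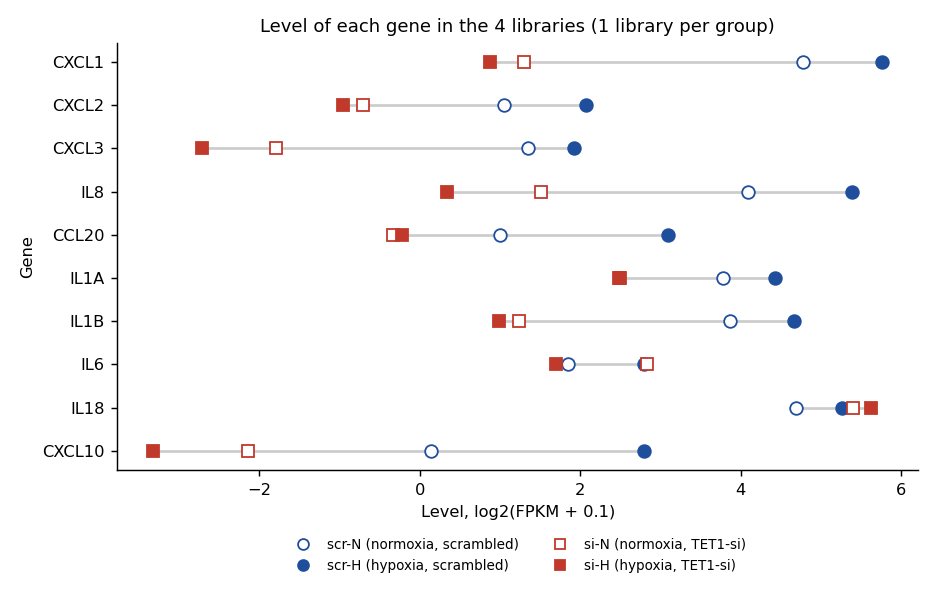
Level of each of the 10 genes as log2(FPKM + 0.1) (horizontal axis) in each library, with blue circles for scrambled and red squares for TET1-si cells, open for normoxia and filled for hypoxia, 1 library per group and no error bars. For 8 genes both red squares lie left of both blue circles, the IL6 symbols interleave, and for IL18 the red squares lie at the right.

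Changes were computed on log2(FPKM + 0.1), which understates ratios at low levels, and a gene was called higher or lower when this change was at least 1 in size, which is 2-fold. The background was 15057 genes with a mean of at least 1 FPKM over the 4 libraries. All 10 genes passed that minimum, but CXCL2, CXCL3, CCL20 and CXCL10 were under 1 FPKM in both TET1-si libraries and passed only through the scrambled ones, so for them a lower level in TET1-si cells is partly built into the filter. Under hypoxia, 9 of the 10 were called lower in TET1-si than in scrambled cells, beside 8.35% of all genes, with a median change of -3.49 against 0.10 over all genes. In normoxia 8 of the 10 were called lower, beside 5.56% of all genes, with a median of -2.01 against 0.15. With no minimum, the background shares were 11% and 8.2%. The same 8 genes, all but IL6 and IL18, were called lower in both oxygen states, beside 3.06% of all genes. None was called higher after TET1-si, where 12% of all genes were in hypoxia and 12.1% in normoxia. These comparisons share libraries and are not separate pieces of evidence.

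**Figure D2:**
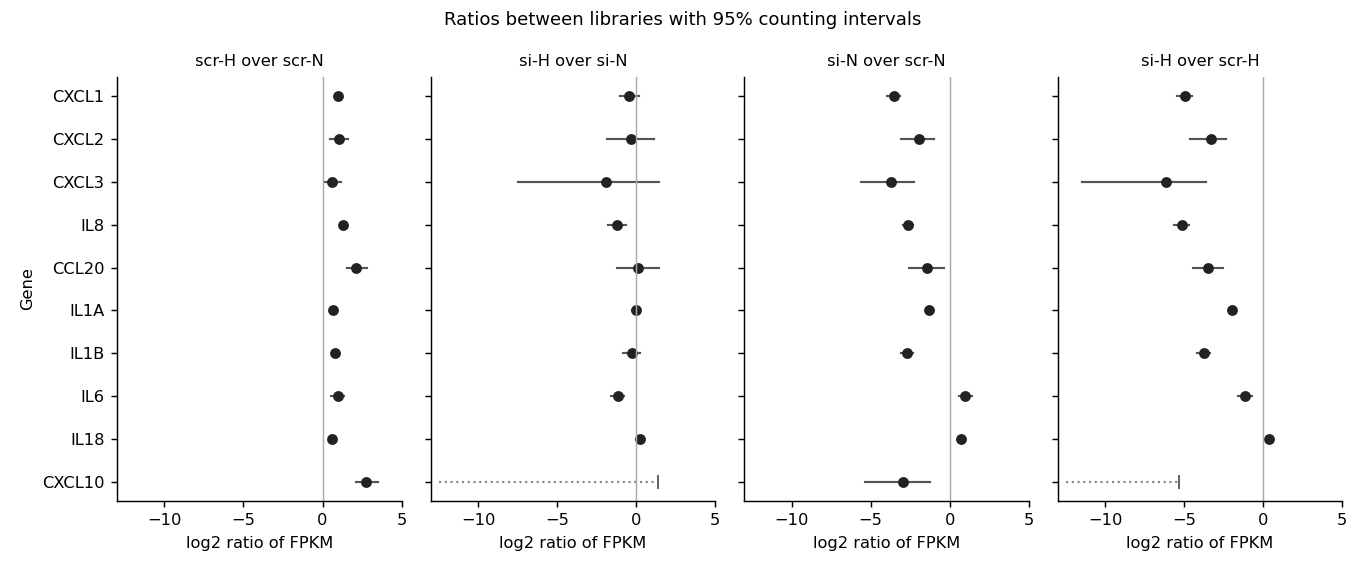
Ratios of FPKM between pairs of libraries on a log2 scale (horizontal axis, 1 panel per pair) for the 10 genes, with 95% intervals that cover counting error only; a dotted line with an end mark is an interval open to the left, for CXCL10 at 0 reads in si-H. In the 2 right-hand panels the intervals of 8 genes lie below 0, IL18 lies above 0 in both, and IL6 lies above 0 in normoxia and below 0 in hypoxia.

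The hypoxia response is the change from normoxia to hypoxia within 1 kind of cell. In scrambled cells all 10 genes were higher in hypoxia, from 0.57 for IL18 to 2.66 for CXCL10, with a median of 0.96 against 0.05 over all genes. The share of all genes above 0 was not counted, and their median was above 0 too. Of the 10, 4 were past 2-fold (CXCL2, IL8, CCL20 and CXCL10), beside 12.9% of all genes. None was called lower, beside 4.53%. CXCL10 passed the minimum only through scr-H, and CXCL2, CXCL3 and CCL20, which passed through the scrambled libraries, were also highest there. For these genes a higher level in scr-H than in scr-N is partly built into the filter. CXCL1 at 0.98 and IL6 at 0.94 lay just under the threshold, and CXCL2 at 1.03 just over it. In TET1-si cells the median was -0.33 against 0.03. None of the 10 was called higher in hypoxia there, beside 12.5% of all genes, and 3 were called lower (IL8, IL6 and CXCL10), beside 8.66%. For CXCL10 that call rests on 3 reads or fewer in both libraries and is not read as a difference. A level above normoxia in scrambled cells together with one below normoxia in TET1-si cells was seen for 8 of the 10 genes, all but CCL20 and IL18, beside 11.8% of all genes, although for IL1A the change in TET1-si cells was only -0.01 and turned to 0.15 under upper-quartile scaling and to 0.12 in TPM. Of these 8, only IL8 and IL6 had a counting interval below 0 in TET1-si cells (-1.80 to -0.66 and -1.61 to -0.74). For the others the lower level in hypoxia was within counting error. CXCL2, CXCL3 and CXCL10 are among these 8, and the limit of the filter applies to them here too.

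The difference of hypoxia responses, that of TET1-si minus that of scrambled cells, was below 0 for all 10 genes, from -0.35 for IL18 to -3.84 for CXCL10, with a median of -1.45 against -0.06 over all genes. The share of all genes below 0 was not counted, and their median was below 0 too. The difference was at or below -1 for 8 of the 10 genes, all but IL1A and IL18, beside 7.86% of all genes. None was at 1 or above, beside 4.87%. The CXCL10 value rests on about 3 and 0 reads in si-N and si-H and has no counting interval. It was -2.14 with a pseudocount of 1 and -6.54 with 0.01. The intervals of the ratio-based difference included 0 for CXCL2 (-2.80 to 0.03) and CXCL3 (-5.68 to 0.73). The study asked of a gene that scr-H be over 2 times si-H, that scr-H exceed scr-N and that scr-N be at least si-N. On the deposited values these inequalities held for 578 of the 15057 genes and for 2687 of all rows. The study reported a different number of genes, so its own set was not reproduced here. Those inequalities held for the 8 genes other than IL6 and IL18, beside 3.84% of the 15057 genes and 4.33% of all rows of the table. CXCL2, CXCL3, CCL20 and CXCL10 are among these 8 and passed the minimum only through the scrambled libraries. For them, scrambled levels above TET1-si levels are partly built into the filter. The same genes are among the 8 counted for the difference, where this limit also applies.

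**Figure D3:**
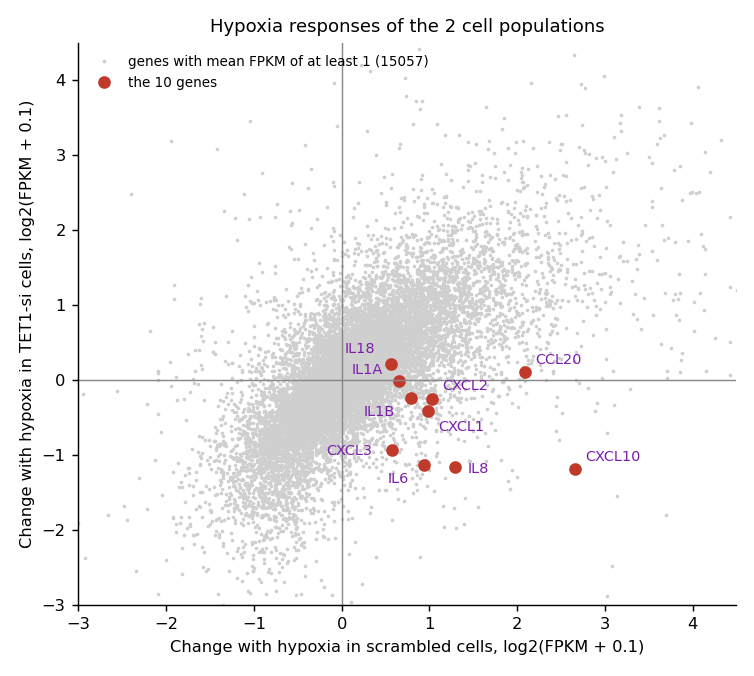
Change with hypoxia in scrambled cells (horizontal axis, scr-H less scr-N) against that in TET1-si cells (vertical axis, si-H less si-N), both on log2(FPKM + 0.1), for 15057 genes (grey, 360 of them beyond the axes) and the 10 genes (red, named). All 10 lie right of 0, between 0.57 and 2.66, and between -1.18 and 0.22 on the vertical axis, where the 2 above 0 are CCL20 and IL18.

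CXCL1, a neutrophil chemokine first known as a melanoma growth factor (ENSG00000163739, chromosome 4, 74735110 to 74736959, plus strand, hg19), was at 27.4 FPKM in scr-N, 54.2 in scr-H, 2.35 in si-N and 1.74 in si-H. These levels rest on about 604, 1280, 55 and 38 reads. The scrambled libraries were both far above the TET1-si ones. scr-H was 1.98-fold above scr-N, while si-H was 1.35-fold below si-N with a counting interval of the log2 ratio from -1.05 to 0.21, so a difference between the oxygen states was not detectable in TET1-si cells at this depth. The level after TET1-si was 11.6-fold lower in normoxia and 31.2-fold lower in hypoxia, where the interval of the log2 ratio ran from -5.45 to -4.48.

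IL8 (ENSG00000169429, chromosome 4, 74606223 to 74609433, plus strand), the best known neutrophil attractant, was at 17.0 FPKM in scr-N, 41.8 in scr-H, 2.74 in si-N and 1.17 in si-H, on about 557, 1470, 96 and 38 reads. Hypoxia went with a 2.46-fold higher level in scrambled cells and a 2.35-fold lower one in TET1-si cells. The intervals of these log2 ratios, 1.16 to 1.44 and -1.80 to -0.66, lay on opposite sides of 0. IL8 was 6.20-fold lower after TET1-si in normoxia and 35.8-fold lower in hypoxia, the largest ratio among the genes with over 10 reads in every library.

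CXCL2 (ENSG00000081041, chromosome 4, 74962793 to 74965010, minus strand), a relative of CXCL1 with the same receptor, was much lower in level, at 1.96 FPKM in scr-N, 4.10 in scr-H, 0.512 in si-N and 0.415 in si-H, on about 41, 91, 11 and 8 reads. Its ratio of scrambled to TET1-si was 3.83 in normoxia and 9.90 in hypoxia. CXCL3 (ENSG00000163734, chromosome 4, 74902306 to 74904524, minus strand), the third of these duplicates, was at 2.45, 3.68, 0.189 and 0.0515 FPKM in the same order, on about 48, 78, 4 and 1 reads. Its ratio was 13.0 in normoxia and 71.5 in hypoxia, but with 1 read in si-H the interval of that log2 ratio spanned -11.48 to -3.64. Within either TET1-si pair the oxygen states of CXCL2 and CXCL3 could not be told apart at this depth, with intervals of -1.85 to 1.11 and -7.50 to 1.46.

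Because the coding parts of CXCL1, CXCL2 and CXCL3 resemble each other, reads could be split among them. No stretch of 100 bases was shared exactly between their main transcripts. Allowing 2 mismatches, 8.84% of CXCL1 windows matched CXCL2, 2.76% of CXCL2 windows matched CXCL3, and none of CXCL1 matched CXCL3. CXCL1 was over 10 times the level of CXCL2 in scrambled cells. How much of the CXCL2 value comes from CXCL1 reads was not tested, and CXCL2 is uncertain for that reason.

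CCL20 (ENSG00000115009, chromosome 2, 228678558 to 228682272, plus strand), the epithelial ligand of CCR6, was at 1.90 FPKM in scr-N, 8.40 in scr-H, 0.694 in si-N and 0.757 in si-H, on about 27, 128, 11 and 11 reads. The highest level was in scr-H, 4.41-fold that of scr-N and 11.1-fold that of si-H. In normoxia it was 2.74-fold lower after TET1-si, with an interval of the log2 ratio from -2.55 to -0.33. In TET1-si cells the ratio of hypoxia to normoxia was 1.09, with an interval of the log2 ratio from -1.22 to 1.47. The difference of hypoxia responses was -1.97 on the log2(FPKM + 0.1) scale.

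CXCL10 (ENSG00000169245, chromosome 4, 76942273 to 76944650, minus strand) was at 0.998 FPKM in scr-N, 6.82 in scr-H and 0.127 in si-N, and was listed at 0 in si-H. The reads were about 22, 161, 3 and 0. It had the largest hypoxia response of the 10 in scrambled cells, 6.83-fold, with an interval of the log2 ratio from 2.12 to 3.49. In normoxia it was 7.84-fold lower in si-N than in scr-N, with an interval from -5.35 to -1.24. A floor of 3 reads in si-H corresponds to 0.138 FPKM, and against it the level under hypoxia was at least 49.3-fold lower in TET1-si than in scrambled cells. Both TET1-si libraries were at or under that floor, so no hypoxia response is given for them. The gene lies inside the locus of ART3, which was at 0 in every library.

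IL1A (ENSG00000115008, chromosome 2, 113531492 to 113542167, minus strand), an alarmin that is active without being cleaved, was at 13.7 FPKM in scr-N, 21.5 in scr-H, 5.54 in si-N and 5.48 in si-H, on about 566, 953, 245 and 223 reads. It was 2.47-fold lower after TET1-si in normoxia and 3.92-fold lower in hypoxia, the smallest ratios of the 8 genes that were lower in both states. The oxygen states of TET1-si cells differed by less than counting error, with an interval of the log2 ratio from -0.28 to 0.26.

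IL1B (ENSG00000125538, chromosome 2, 113587328 to 113594480, minus strand), which needs cleavage by caspase-1, was at 14.5 FPKM in scr-N, 25.2 in scr-H, 2.26 in si-N and 1.89 in si-H, on about 431, 801, 72 and 55 reads. It was 6.44-fold lower after TET1-si in normoxia and 13.3-fold lower in hypoxia. The ratio of IL1A to IL1B was 0.940 in scr-N and 0.853 in scr-H, against 2.45 in si-N and 2.90 in si-H, so the 2 genes were near equal in scrambled cells and IL1A led in TET1-si cells.

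IL6 (ENSG00000136244, chromosome 7, 22765503 to 22771621, plus strand) behaved unlike the rest. It was at 3.51 FPKM in scr-N, 6.83 in scr-H, 7.01 in si-N and 3.13 in si-H, on about 74, 153, 157 and 64 reads. The levels thus formed a crossed pattern in which scr-N and si-H were low and scr-H and si-N were high. Hypoxia went with a 1.94-fold higher level in scrambled cells, with an interval of the log2 ratio from 0.54 to 1.37, and with a 2.24-fold lower one in TET1-si cells, with an interval from -1.61 to -0.74. After TET1-si, IL6 was nearly 2-fold higher in normoxia (0.98 on the log2(FPKM + 0.1) scale, just short of a call) and 2.18-fold lower in hypoxia. An overlapping row, AC073072.5, was under 0.1 FPKM in every library.

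IL18 (ENSG00000150782, chromosome 11, 112013974 to 112034840, minus strand) was the only gene of the 10 that was higher in TET1-si cells in both oxygen states, and was 2-fold changed in no comparison. Its levels were 25.8 FPKM in scr-N, 38.3 in scr-H, 42.3 in si-N and 49.2 in si-H, on about 534, 849, 936 and 999 reads. They were 1.64-fold higher after TET1-si in normoxia and 1.28-fold higher in hypoxia, with intervals of the log2 ratio from 0.56 to 0.87 and from 0.23 to 0.50. Hypoxia went with a 1.48-fold higher level in scrambled cells and a 1.16-fold higher one in TET1-si cells. These ratios are of a size that scaling can move, and in normoxia the change after TET1-si was 0.54 under median-of-ratios scaling in place of 0.71.

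CXCL1, CXCL2, CXCL3, IL8 and CXCL10 lie in a region of chromosome 4 that also holds other CXC chemokines and the growth factors of the epidermal growth factor receptor. The nearest chemokine neighbours were silent here: CXCL6, PF4V1, PF4 and PPBP were at 0 in every library, and CXCL5 was at 0.0749 FPKM in scr-N, 0.122 in scr-H and 0 in both TET1-si libraries. Beyond CXCL2, the ligands EREG, AREG and BTC did not share the pattern. EPGN, between CXCL2 and EREG, had the library order of CXCL1 but at a very low level. It was at 0.0831 FPKM in scr-N, 0.170 in scr-H, 0.0776 in si-N and 0.0452 in si-H. EREG was at 33.7 FPKM in scr-N, 23.6 in scr-H, 41.2 in si-N and 15.9 in si-H, which is lower in hypoxia in both kinds of cell. BTC was at 3.11, 3.33, 5.85 and 3.82 FPKM in the same order. CXCL11, the neighbour of CXCL10 with the same receptor, was at 1.16 FPKM in scr-N, 3.24 in scr-H, 0.292 in si-N and 0.0319 in si-H, on about 34, 101, 9 and 1 reads. Its order of libraries was that of CXCL10. CXCL9, next to these, had a mean of only 0.0164 FPKM.

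**Figure D4:**
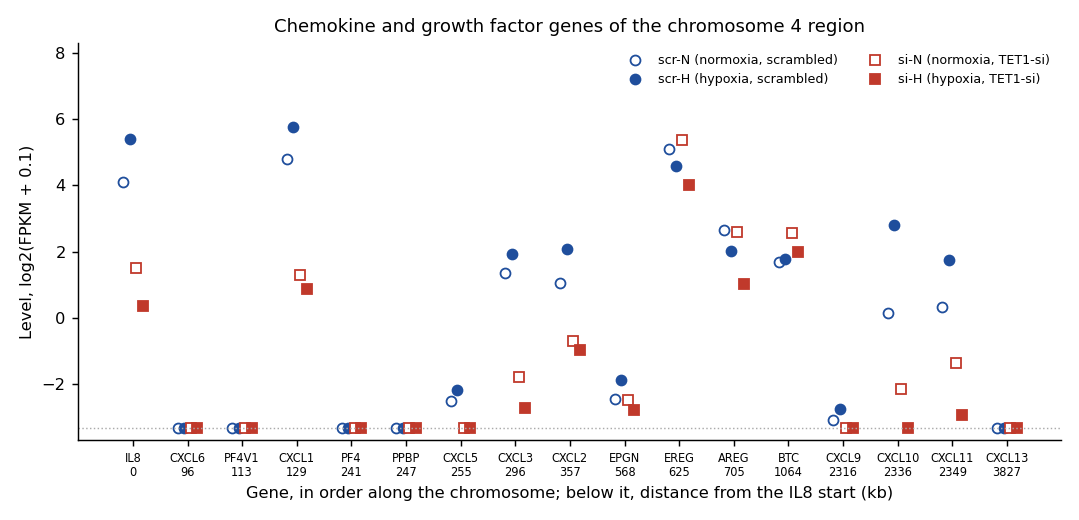
Level as log2(FPKM + 0.1) (vertical axis) of 17 genes in their order on chromosome 4, with the distance from the IL8 start in kb under each name; symbols are as in the plot of levels, and the dotted line is an FPKM of 0. IL8, CXCL1, CXCL3, CXCL2, CXCL10 and CXCL11 have both blue circles above both red squares, and EREG, AREG and BTC between them do not. EPGN, CXCL5 and CXCL9 also have both circles above both squares, at no more than 0.17 FPKM, and 5 genes are on the dotted line in all 4 libraries.

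IL1A and IL1B lie in the interleukin-1 cluster of chromosome 2. Of the other 8 interleukin-1 family ligands looked at, 3 passed the minimum. IL1RN, the receptor antagonist that blocks IL1A and IL1B, was at 12.3 FPKM in scr-N, 19.2 in scr-H, 2.07 in si-N and 2.63 in si-H. It was 5.96-fold lower after TET1-si in normoxia and 7.27-fold lower in hypoxia, so agonists and antagonist were lower together. IL36G, a keratinocyte agonist, was at 1.09 FPKM in scr-N and 5.84 in scr-H and was listed at 0 in both TET1-si libraries, at least 8.85-fold lower in normoxia and at least 43.7-fold lower in hypoxia against a floor of 3 reads. IL36RN, its antagonist, was at 0.882, 2.15, 0.469 and 1.82 FPKM in scr-N, scr-H, si-N and si-H and was called in neither oxygen state. Genes that flank the cluster gave mixed patterns. CKAP2L was at 32.2, 14.5, 32.8 and 8.66 FPKM in the same order, higher in normoxia in both kinds of cell. PAX8 was at 8.36, 11.9, 3.29 and 6.36 FPKM and was called lower after TET1-si in normoxia, at -1.32, but not in hypoxia, at -0.89.

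Of 8 chemokine receptors looked at, 2 passed the minimum. CXCR2, the shared receptor of CXCL1, CXCL2, CXCL3 and IL8, was at 0.968 FPKM in scr-N, 3.31 in scr-H, 1.88 in si-N and 10.3 in si-H. It was higher in hypoxia in both kinds of cell, and 3.12-fold higher in si-H than in scr-H, where its ligands were lower. The scavenger receptor CXCR7 was at 0.602, 4.67, 0.971 and 8.91 FPKM in the same order. Of 14 interleukin-1 and interleukin-18 receptor and adaptor genes on 1 row, 10 passed, with a median after TET1-si of 0.20 in normoxia and 0.03 in hypoxia. IL1RL1, the receptor of IL33, was at 5.84 FPKM in scr-N, 1.39 in scr-H, 16.1 in si-N and 2.95 in si-H, and was the only one called higher after TET1-si in both states. MYD88, the adaptor of these receptors, was 2.08-fold lower in si-H than in scr-H.

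Of 12 genes linked to the processing of IL1B and IL18, 7 passed. After TET1-si 3 of the 7 were called higher in normoxia, beside 12.1% of all genes, and 1 in hypoxia, beside 12%, and none was called lower in either. Their median change was 0.84 in normoxia and 0.74 in hypoxia, against 0.15 and 0.10 over all genes. NLRP1, the main inflammasome sensor of human keratinocytes, was at 7.82 FPKM in scr-N, 13.0 in scr-H, 28.1 in si-N and 65.0 in si-H, which is 3.59-fold and 4.99-fold higher after TET1-si. The protease CASP1 was at 11.4, 23.4, 20.4 and 25.4 FPKM in the same order, and the adaptor PYCARD at 4.64, 10.3, 10.0 and 19.7. CASP8, a protease better known from cell death, had lower values in TET1-si cells, at 25.2, 19.2, 13.3 and 12.7 FPKM, with changes of -0.92 in normoxia and -0.59 in hypoxia.

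All 14 NF-kB subunits, inhibitors and feedback targets passed. In hypoxia 5 were called lower after TET1-si (TNFAIP3, ICAM1, RELB, NFKBIZ and NFKBIA), beside 8.35% of all genes. None was called higher there, beside 12%, and the median was -0.69 against 0.10 over all genes. In normoxia 3 were called lower (TNFAIP3, ICAM1 and NFKBIZ), beside 5.56%, with a median of -0.21 against 0.15. TNFAIP3, the feedback inhibitor A20, was at 49.7 FPKM in scr-N, 96.7 in scr-H, 12.2 in si-N and 5.76 in si-H, higher with hypoxia in scrambled cells and lower with it in TET1-si cells, as IL8 was. NFKBIA, which encodes IkB alpha, was at 117.4, 197.2, 71.4 and 71.7 FPKM, and ICAM1, an adhesion molecule, at 36.8, 83.9, 17.9 and 23.6. The main subunits differed less: RELA was at 136.0, 155.2, 141.4 and 124.4 FPKM and NFKB1 at 35.2, 39.6, 40.1 and 28.0. RELB, a subunit of the alternative pathway, was at 6.27, 11.4, 7.48 and 3.35 FPKM.

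Proteins that control the decay of AU-rich messages, the kind many of the 10 genes make, were all 9 above the minimum. Their median after TET1-si was -0.30 in normoxia and -0.37 in hypoxia, against 0.15 and 0.10 over all genes. In hypoxia 1 was called higher and 1 lower, beside 12% and 8.35% of all genes, and none was called in normoxia. ZFP36, which binds such messages and brings on their decay, was at 13.9 FPKM in scr-N, 16.7 in scr-H, 9.76 in si-N and 10.1 in si-H. ZFP36L1, its relative, was at 23.7, 28.5, 47.5 and 57.3 FPKM.

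Of the interferon factors that act upstream of CXCL10, 12 of 13 on 1 row passed. In scrambled cells 6 were called higher in hypoxia, beside 12.9% of all genes, and in TET1-si cells 3, beside 12.5%. The medians were 0.79 and 0.26, against 0.05 and 0.03 over all genes. After TET1-si 4 were called lower in hypoxia, beside 8.35%, and 1 in normoxia, beside 5.56%. IRF7, which drives type I interferon genes, was at 7.27 FPKM in scr-N, 61.5 in scr-H, 10.9 in si-N and 24.4 in si-H and so kept a hypoxia response in TET1-si cells, where CXCL10 was at the floor. STAT2 was at 40.2, 163.0, 32.1 and 87.4 FPKM in the same order.

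Among the interleukin-6 family, its receptors and STAT3 feedback, 14 of 16 genes passed, and the calls after TET1-si went both ways, with 4 higher and 3 lower in hypoxia and 3 higher and none lower in normoxia. The shares over all genes were 12% higher and 8.35% lower in hypoxia, and 12.1% and 5.56% in normoxia. IL11, a gp130 ligand, was at 0.393 FPKM in scr-N, 0.428 in scr-H, 2.57 in si-N and 2.19 in si-H, with the high levels in TET1-si cells. LIF, another gp130 ligand, was at 8.70, 18.5, 9.44 and 5.87 FPKM, which is higher in hypoxia in scrambled cells and lower in TET1-si cells, as with IL6. Of 20 other interleukins and epithelial cytokines 10 passed, and 3 were called lower and 1 higher after TET1-si in hypoxia, beside the same all-gene shares. LTB, a member of the tumour necrosis factor family, was at 11.6 FPKM in scr-N, 26.0 in scr-H, 2.03 in si-N and 0.446 in si-H, 58.4-fold lower in hypoxia after TET1-si on 7 reads in si-H. Of 27 other chemokine ligands 5 passed. After TET1-si 3 of them were called lower and 1 higher in hypoxia, and 1 lower and none higher in normoxia. The all-gene shares are those given above. CCL5, a T cell attractant, was at 3.64, 12.8, 2.34 and 2.72 FPKM, highest in scr-H as CCL20 was. CXCL16 was at 6.10, 10.3, 4.84 and 3.81 FPKM. The others did not all share this pattern. CCL26 went the other way in hypoxia, at 1.95, 1.69, 1.43 and 5.26 FPKM. XCL1, at 1.21, 1.52, 1.09 and 1.85 FPKM, was called in neither oxygen state.

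**Figure D5:**
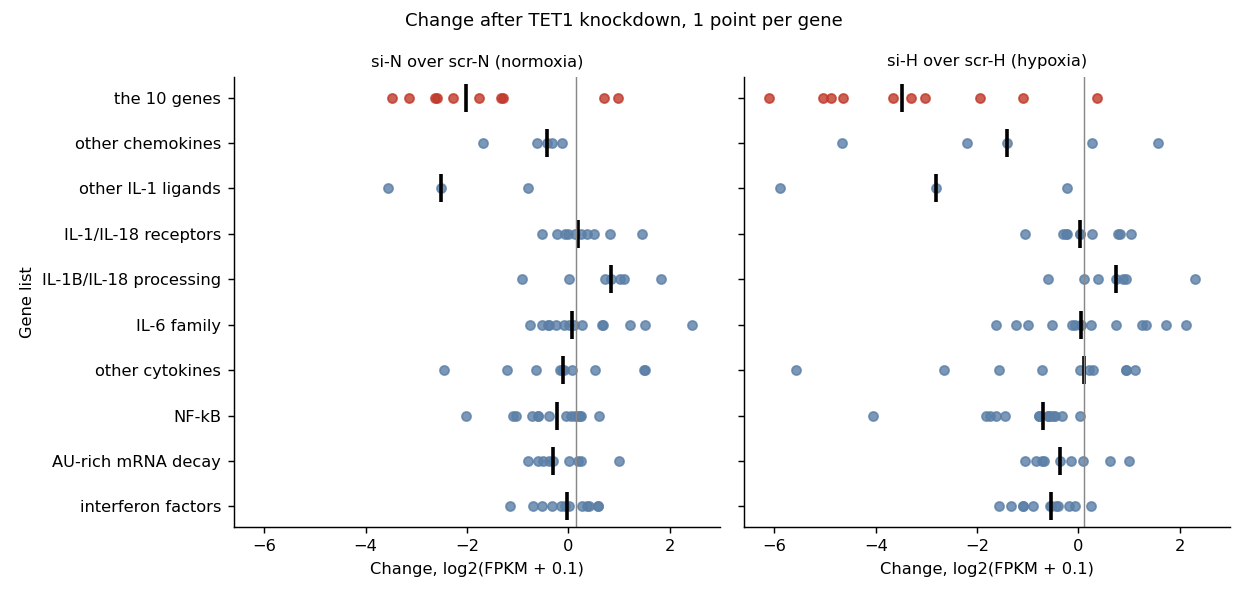
Change after TET1-si on log2(FPKM + 0.1) (horizontal axis) in normoxia (left) and hypoxia (right), 1 point per gene that passed the minimum, for the 10 genes (red) and 9 gene lists (blue); black ticks are medians and the grey line is the median of all genes, 0.15 and 0.10. The tick of the 10 genes is at -2.01 and -3.49, that of the processing genes at 0.84 and 0.74, and the points of CXCL10 in hypoxia and of IL36G in both panels rest on 0 reads and depend on the pseudocount.

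The likeness of any pair of genes was measured as the root mean square distance between their log2(FPKM + 0.1) values over the 4 libraries, each centred on its own mean. With only 4 libraries, many genes come close by this measure. Among the 10 genes the closest pairs were CXCL3 and IL8, at 0.27, and CXCL1 and CXCL3, at 0.28. CXCL3 had about 4 and 1 reads in si-N and si-H and CXCL10 about 3 and 0, so their distances depend on the pseudocount. CXCL2 was farther from its duplicates, at 0.90 from CXCL1 and 0.81 from CXCL3, and was nearest to IL1B, at 0.39. IL6 and IL18 were closest to each other, at 0.58, and CXCL10 was nearest to IL8, at 0.52. Over 14575 other genes, the nearest to CXCL1 was DHRS9, a retinol dehydrogenase, at a distance of 0.07 with 3.46, 7.64, 0.261 and 0.160 FPKM in scr-N, scr-H, si-N and si-H. The second was the pseudogene RP11-415I12.6. Nearest to IL8 were SV2A and again DHRS9, and to CXCL2 they were HDAC9 and NREP. SH2D5 and FHL1 were nearest to CXCL3, CYP51A1 and CRTAC1 to CCL20, and SLC6A13 and a long non-coding RNA to IL1A. CYP51A1, an enzyme of cholesterol synthesis, was at 53.7, 192.4, 21.9 and 21.7 FPKM, highest in scr-H and lowest in the TET1-si libraries. For IL1B the nearest were CSF2RA and TNFRSF9, for IL6 MYEOV and RP11-134G8.7, for IL18 RP11-323N12.1 and BAHD1, and for CXCL10 RP11-302B13.1 and SV2A. MYEOV had the crossed pattern of IL6, at 12.6 FPKM in scr-N, 26.7 in scr-H, 25.6 in si-N and 12.6 in si-H.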

How the data were processed

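RNA-Seq was done on 4 FaDu libraries, 1 per group. The authors made TruSeq mRNA libraries and sequenced them on an Illumina HiSeq with 100 bp reads (single end in the labels, paired end in the methods). They deposited gene-level FPKM values from TopHat and Cufflinks on hg19 with Ensembl annotation, whose versions are not given in the sources used here. Whether strand was kept is not stated, so overlapping genes may share reads.

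The 10 genes and all gene lists were chosen with earlier results of these data known. Every gene named is 1 of the 10, a list gene with a mean of at least 1 FPKM, a gene of the chromosome 4 or 2 region, or among the 2 nearest in pattern (loci of at least 300 bp). Start positions in the table count from 0, so 1 was added. Of the gene IDs, 111 stood on more than 1 row and were left out, as were IL1RAP, IFNAR2, IFNL1 and PECAM1 from the lists.

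Changes are differences of log2(FPKM + 0.1). Depth was found by a search for the depth and length offset at which low FPKM values of 4439 genes with 1 exon became whole reads, and 96.2% to 97.0% did within 0.05. Approximate reads are FPKM times depth times the main transcript length (GENCODE v44lift37) less 213.5 bp. Intervals of ratios are exact 95% binomial (Clopper-Pearson) intervals on those reads, those of differences use the delta method, and both cover counting error only. Scripts used Python 3.11.15, pandas 2.3.3 and SciPy 1.17.1, and were tested on simulated data. Alternatives were pseudocounts of 1 and 0.01, no minimum or one of 5 FPKM, 3 scalings (median-of-ratios, upper quartile, TPM) and other transcript lengths.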

Additional observations from a re-analysis of the deposited data

Results flagged for a closer look

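IL8 and IL6 stood out because hypoxia went with opposite directions in the 2 kinds of cell. IL8 was at 17.0 and 41.8 FPKM in scr-N and scr-H and at 2.74 and 1.17 in si-N and si-H, a difference of hypoxia responses of -2.46 on the log2(FPKM + 0.1) scale, with a counting interval of the ratio-based difference from -3.07 to -1.95. IL6 was at 3.51 and 6.83 FPKM in scr-N and scr-H and at 7.01 and 3.13 in si-N and si-H, a difference of -2.08, with a counting interval from -2.70 to -1.54. With 1 library per group neither difference was tested against the spread between cultures.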

How the results depend on the processing

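No paired analysis was possible because each group had 1 library and the groups share no replicate number beyond it. Each of the 5 comparisons was recomputed under 7 alternatives. No called change of the 10 genes turned its direction, and 144 of 179 summary values kept their size. Values that moved are given here. Counts under another minimum cover fewer or more genes, a larger pseudocount shrinks changes of low genes, and for the scalings the cause was not tested. With a pseudocount of 1, the genes of the 10 called lower were 0 for hypoxia in TET1-si cells, 5 for TET1-si in normoxia and 5 for the difference of responses, and the medians after TET1-si were -2.29 in hypoxia and -1.07 in normoxia. All-gene counts then fell to 1237 higher with hypoxia in scrambled cells, 1164 higher after TET1-si in normoxia, and 467 higher and 786 lower for the difference. With a minimum of 5 FPKM, 6 of the 10 genes were left. Of them 1 was called higher with hypoxia in scrambled cells, 5 and 4 lower after TET1-si in hypoxia and normoxia (hypoxia median -2.81), 4 lower for the difference, and 4 met the study's inequalities. All-gene counts were then 905 higher with hypoxia in scrambled cells, 823 higher with it in TET1-si cells, 881 higher and 789 lower after TET1-si in hypoxia, 892 higher and 435 lower in normoxia, and 269 higher and 633 lower for the difference. With no minimum, 28033 genes gave 4517 higher and 1654 lower (hypoxia, scrambled), 4803 and 2333 (hypoxia, TET1-si), 4226 and 3083 (TET1-si, hypoxia), 3699 and 2299 (TET1-si, normoxia), and 3341 and 3506 (difference). Upper-quartile scaling left 453 lower with hypoxia in scrambled cells, and in TPM 1 of the 10, IL6 at 1.03, was called higher after TET1-si in normoxia. Scaling moved the median of all genes, for TET1-si in normoxia from 0.15 to -0.01 under median-of-ratios and for hypoxia in scrambled cells from 0.05 to 0.18 under upper quartile. The share of calls that were higher went from 68.6% to 55.6% and from 59.0% to 48.7% for TET1-si in normoxia and hypoxia under median-of-ratios, and from 74.0% to 84.0% and from 59.1% to 70.9% for hypoxia in scrambled and TET1-si cells under upper quartile. CXCL1 and IL6 passed 2-fold with hypoxia in scrambled cells at that scaling (1.11 and 1.07), and CXCL2 lost it under median-of-ratios (0.98). Counting intervals with the shortest transcript were wider or unchanged, and some then came to include 0. For CCL20 they reached from -4.06 to 0.55 after TET1-si in normoxia and from -4.58 to 0.53 for the difference. For CXCL3 with hypoxia in scrambled cells the interval was -0.16 to 1.44. Depth limits CXCL3 and CXCL10 most, at 4 reads or fewer in both TET1-si libraries.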
